A study of Saccharomyces cerevisiae with 59 samples.

Results

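The 20 pg libraries of the series comprised 10 of its 59 libraries, and they were compared here as 2 sets defined by the number in their titles, libraries 1-4 (n = 4) and libraries 5-10 (n = 6). The comparison asked which transcripts separate the sets when the same amount of RNA was put into every reaction. All 10 libraries were made from bulk RNA of Saccharomyces cerevisiae strain S288C, grown from a single clone in rich medium, turned into spheroplasts with zymolyase, an enzyme that digests the cell wall, and put under amino acid starvation (AAS) in sorbitol medium lacking amino acids for a time the labels give as at least 30 min and up to 5 hours, while the methods of the study give a shorter upper limit for cells harvested by hand. The labels give the same strain, treatment and sample type for both sets. They do not say what the library number stands for, which exposure time belongs to which library, or whether the libraries came from separate cultures or extracts, so a p-value is set against library-to-library spread alone, of biological or technical origin, and anything that went with the number cannot be told apart from the set.

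In these libraries, cDNA was primed with oligo-dT on poly(A) tails, tailed again at its other end and amplified by PCR without molecular identifiers, which is the protocol the study used for single cells. A count is therefore a uniquely mapped read and not a molecule. Budding yeast ferments glucose to ethanol through glycolysis, and the mRNAs of the glycolytic enzymes are among the most abundant in the cell. When amino acids are missing, the transcription factor Gcn4 is translated and turns on the genes of amino acid synthesis, while genes for ribosomes are repressed.

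The labelled material was checked against its markers. In the 10 libraries the 4 genes specific to alpha cells held 37763 counts. The 7 genes specific to a cells held 208 counts, all of them in libraries 5-10 and with MFA1 and AGA2 at 0. The 20 genes of sporulating diploids held 1719 counts, 50 of them in libraries 1-4 and 1669 in libraries 5-10. The gene totals ran from 607907 to 1756547 counts in libraries 1-4 and from 1189143 to 1962394 in libraries 5-10, and the difference did not pass an exact permutation test (two-sided p = 0.171, adjusted p = 0.193). Spike-in RNA made up 53.9% to 72.3% of spike-in plus gene counts in libraries 1-4 and 44.7% to 59.6% in libraries 5-10 (adjusted exact p = 0.193).

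The sets differed in the base composition of the transcripts they counted, among other measures given below, and stretches of coding sequence from genes at either end are shown for it. Each stretch is the 120 bases of the coding strand, read in steps of 3 from the start codon, whose G and C share came nearest to that of the whole gene, taken from the R64 reference of RefSeq and written 5′ to 3′ with G and C in capitals. The first group holds the 3 genes richest in G and C among those called higher in libraries 1-4 whose values in the sets did not overlap, with a mean of at least 1000 CPM, the gene's counts scaled so that the gene counts of every library have the same sum. The second group holds the 3 poorest in G and C among genes at lower CPM in every library of 1-4 than in any of 5-10, with an unadjusted p under 0.05 and a mean of at least 200 CPM.
YNL208W (chrXIV:254487-254606, plus strand): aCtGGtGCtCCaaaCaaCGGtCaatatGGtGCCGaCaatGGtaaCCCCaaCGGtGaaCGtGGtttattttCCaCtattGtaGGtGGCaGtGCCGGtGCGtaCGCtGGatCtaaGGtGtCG
HSP150 (chrX:120671-120790, plus strand): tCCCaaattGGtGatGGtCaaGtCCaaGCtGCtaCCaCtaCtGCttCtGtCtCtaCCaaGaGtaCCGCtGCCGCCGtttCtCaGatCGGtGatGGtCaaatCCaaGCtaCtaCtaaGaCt
CYS3 (chrI:130826-130945, plus strand): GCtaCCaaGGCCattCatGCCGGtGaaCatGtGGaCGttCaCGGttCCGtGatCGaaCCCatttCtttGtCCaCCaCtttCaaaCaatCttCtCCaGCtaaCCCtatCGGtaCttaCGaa
GTO1 (chrVII:797731-797850, minus strand): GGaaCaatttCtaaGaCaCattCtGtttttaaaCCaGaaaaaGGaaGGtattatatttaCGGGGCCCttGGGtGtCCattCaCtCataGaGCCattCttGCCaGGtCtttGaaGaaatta
EMC1 (chrIII:46612-46731, minus strand): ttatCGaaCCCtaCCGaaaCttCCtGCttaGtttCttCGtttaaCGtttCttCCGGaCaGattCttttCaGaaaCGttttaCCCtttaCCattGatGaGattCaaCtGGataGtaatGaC
SNF4 (chrVII:292075-292194, plus strand): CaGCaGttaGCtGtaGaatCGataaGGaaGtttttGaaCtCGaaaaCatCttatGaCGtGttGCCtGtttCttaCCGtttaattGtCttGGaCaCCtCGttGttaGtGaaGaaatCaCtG

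The first group has 58 to 62 capitals in 120 bases and the second has 46 or 47. Over the whole coding sequence the GC content is 51.3% in YNL208W, an uncharacterised gene, 48.8% in HSP150, which encodes a secreted mannoprotein of the cell wall, and 48.7% in CYS3, which encodes cystathionine gamma-lyase. It is 38.4% in GTO1, which encodes a glutathione transferase, 38.5% in EMC1, which encodes a subunit of a membrane protein complex of the endoplasmic reticulum, and 38.8% in SNF4, which encodes the activating subunit of the Snf1 kinase. YNL208W stood at 4147, 3178, 5072 and 3696 CPM in libraries 1 to 4 and between 1100 and 1870 CPM (median 1538) in libraries 5-10. SNF4 stood at 62.9, 47.7, 139 and 25.3 CPM in libraries 1 to 4 and between 257 and 775 CPM (median 489) in libraries 5-10. The absence of overlap, its direction and the contrast in GC content between these 2 groups were all fixed by the way the 6 genes were chosen. GTO1, EMC1 and SNF4 did not pass the edgeR test described below (adjusted p = 0.36, 0.36 and 0.34).

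At equal input, libraries 1-4 contained fewer genes and more of their counts lay in a few transcripts. With 5 counts as the minimum for detection, 2450 ± 291 genes (SD, n = 4) were found in libraries 1-4 against 3361 ± 245 (n = 6) in libraries 5-10. After every library was thinned to 600000 gene counts the numbers were 2175 ± 64.1 and 3013 ± 189. The 10 most abundant genes of each library held 47.9% ± 1.77 of the gene counts in libraries 1-4 and 25.6% ± 1.87 in libraries 5-10. The GC content of the coding sequence, averaged with the counts as weights, was 45.1% ± 0.118 and 43.2% ± 0.191, and the coding length averaged in the same way was 1311 ± 9.13 and 1441 ± 42.9 nucleotides. In each of these 5 measures all 4 libraries of the lower-numbered set lay on the same side of all 6 others, and each passed the two-sided exact permutation test with the smallest p that the 210 arrangements of 4 and 6 libraries allow (p = 0.00952, adjusted p = 0.0171 over 9 measures). The length difference did not pass when glycolytic genes were left out (-64.7 nucleotides, adjusted exact p = 0.103), whereas the GC difference did without the 10 most abundant genes of each library (1.76 percentage points, adjusted exact p = 0.0171), a setting chosen after seeing the data.

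**Figure D1:**
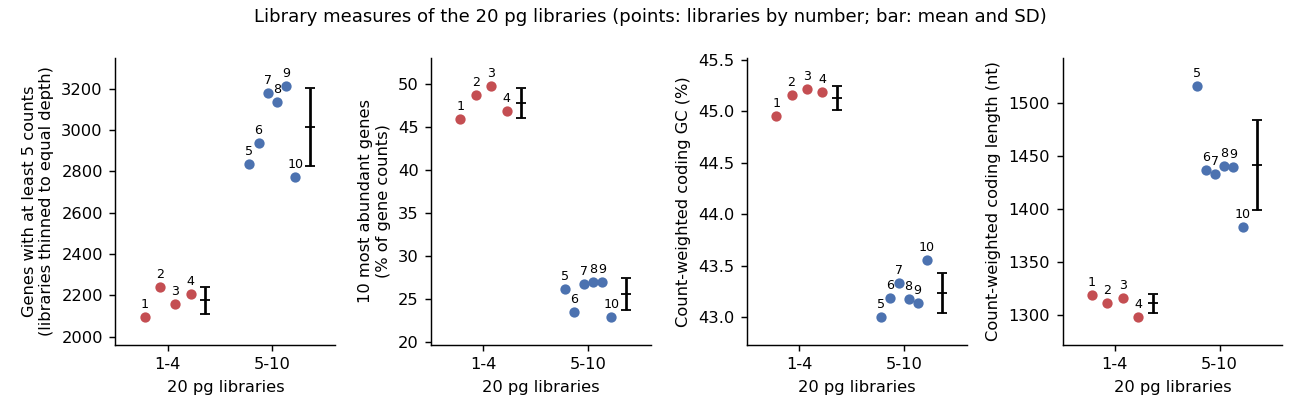
Library measures of the 20 pg libraries by set: genes with at least 5 counts after thinning to 600000 counts, percent of gene counts in the 10 most abundant genes, count-weighted coding GC content in percent and count-weighted coding length in nucleotides. Points are libraries labelled by number and bars are means with SDs (n = 4 and n = 6); the sets are separate in all 4 panels, at 45.9% to 49.9% against 23.0% to 27.1% for the 10 most abundant genes.

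The likeness to the largest input was read differently by each measure of it. The Spearman correlation of a library's CPM with the mean of the 9 libraries made from 10 ng of the RNA was 0.589 ± 0.0181 in libraries 1-4 and 0.593 ± 0.0296 in libraries 5-10 (exact p = 0.81). When limited to 956 genes that reached 5 counts in each of the 10 libraries, the difference (libraries 1-4 minus 5-10) was -0.0978 (adjusted exact p = 0.0429). Over all 4721 genes that passed the count filter, Pearson's correlation of log2(CPM + 1) was 0.0338 higher in libraries 1-4 (adjusted exact p = 0.0286). Between single 20 pg libraries the correlation over 4721 genes had a median of 0.551 for the 6 pairs within libraries 1-4, 0.496 for the 15 pairs within libraries 5-10 and 0.497 for the 24 pairs across the sets.

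Counts were then summed by the GC content of the gene, and the sets separated at both ends of the scale. Genes with up to 38% GC took 1.15% to 1.57% of the gene counts in libraries 1-4 and 3.85% to 7.33% in libraries 5-10, a 4.32-fold difference of the means. Those above 38% and up to 40% took 4.19% to 4.87% and 10.8% to 14.7%. From 42% to 44% the ranges were 10.6% to 14.7% and 16.5% to 20.5%, and from 44% to 46% they were 16.1% to 19.2% and 13.1% to 16.5%, so that the order of the sets turned between these classes, with an overlap in the upper class alone. Genes above 46% and up to 48%, the class that holds TDH3 and ENO2, took 38.9% to 44.9% in libraries 1-4 and 21.3% to 24.5% in libraries 5-10. Genes above 48% took 8.16% to 11.03% and 4.63% to 7.35%. With all 25 glycolytic genes taken out of the counts, the shares were 2.24% to 2.86% against 4.96% to 9.92% in the class up to 38% GC, and 12.3% to 16.7% against 5.33% to 8.39% above 48%.

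**Figure D2:**
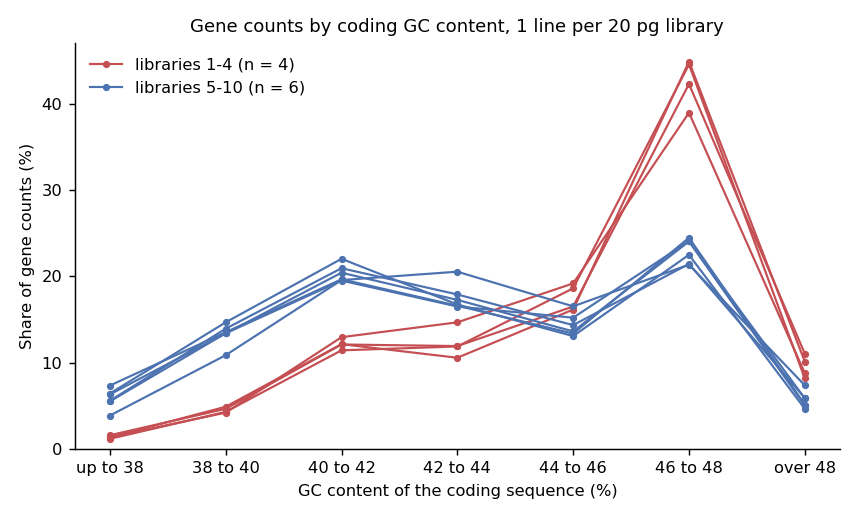
Share of gene counts (percent) in 7 classes of coding GC content (percent), with a line for each 20 pg library, red for libraries 1-4 (n = 4) and blue for libraries 5-10 (n = 6). The red lines lie below the blue ones in the 4 classes up to 44% GC and above them in both classes over 46%.

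Detection followed the same order. At equal depth, 18.7% of the 1639 genes with up to 38% GC were detected on average in libraries 1-4 and 35.9% in libraries 5-10. In the 207 genes above 48% GC the shares were 53.7% and 51.2%, with 102 to 119 genes per library in libraries 1-4 and 104 to 108 in libraries 5-10. The deficit of detected genes in libraries 1-4 was thus spread over the classes up to 46% GC, and above 46% the ranges of the sets overlapped. These classes were not matched for abundance. Of the genes tested, 44 of 1149 up to 38% GC and 69 of 155 above 48% were in the most abundant 20%. Thinning equalised the totals but not the part of them held by the 10 most abundant genes. With all counts, 5242 genes had at least 5 counts in at least 1 library. Of these, 20 had them in all 6 libraries of 5-10 and in none of 1-4, among them CBF5, FDC1 and TAF10. The reverse pattern was shown by 1 gene, GON7. These numbers were not matched for depth. Gene totals were 667546 and 607907 in libraries 1 and 2, 1756547 and 1420433 in libraries 3 and 4, and at least 1189143 in libraries 5-10.

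Single genes were tested with edgeR's quasi-likelihood test on the counts after TMM scaling, and 4721 of the 6420 genes listed passed the filter, which asked for 5 counts or more in 20% or more of the libraries. With a Benjamini-Hochberg adjusted p under 0.05, 50 genes were higher in libraries 1-4, 1.06% of the genes tested, and 0 were higher in libraries 5-10, 0% of them. At an unadjusted p under 0.05 the numbers were 236 and 409, and DESeq2's Wald test called 125 and 220. The median log2 fold change (libraries 1-4 over 5-10) of all genes tested was -0.84 with TMM scaling, -0.93 with DESeq2's size factors, -0.19 with upper-quartile scaling, -1.90 with library totals alone and -2.36 with spike-in totals, so that the direction of a gene depends on the scale unless it is read against this median. Fold changes of genes are given below as fitted with TMM, and those of lists relative to the median of all genes tested. All 50 called genes were above 0 with library totals, where 12 of them were called, and 40 of them were above 0 with spike-in totals, where no gene was called.

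The called genes were rich in G and C. Their median GC content was 46.01%, against 39.96% for all genes tested, and 49 of the 50 lay above that median. They also were abundant, with 49 among the most abundant 20% of the genes tested. The shares of lists called below are set against all genes, not against genes of like abundance. Abundant genes were themselves richer in G and C. Of 4706 tested genes with a coding sequence, 1149 had up to 38% GC and 1236 above 38% and up to 40%. In the most abundant 20% these numbers were 44 and 170 of 944. Within these 944 genes the Spearman correlation of the fold change with GC content was 0.61, and with the level in the 10 ng libraries 0.08, with coding length -0.01 and with the longest run of A -0.20. These values describe genes that share the same 10 libraries and carry no p. In the 4 classes of lower abundance, each of the same size, the correlation with GC was 0.44, 0.32, 0.21 and 0.06 in falling order of abundance. When each library was given offsets from a smooth curve of its log2 CPM on GC content, a setting chosen after seeing the data, no gene was called and 42 of the 50 kept their sign. What share of the difference between the sets goes with GC content alone was not tested.

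**Figure D3:**
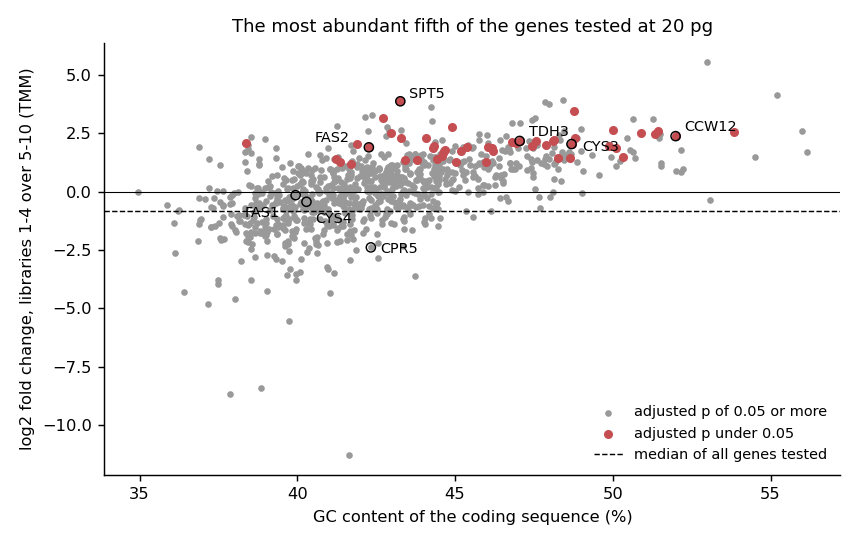
Coding GC content (percent) and fitted log2 fold change (libraries 1-4 over 5-10, TMM scaling) of the most abundant 20% of the genes tested. Red points had an adjusted p under 0.05, the dashed line is the median of all genes tested at -0.84, and fold changes run upward with GC content (Spearman correlation 0.61).

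The 25 genes of glycolysis and ethanol formation took 43.0% to 48.5% of the gene counts in libraries 1-4 and 22.4% to 26.1% in libraries 5-10, a 1.88-fold difference. Of these genes, 11 were higher in libraries 1-4 and 0 lower, against the 1.06% of all genes that were called, and the list's median log2 fold change was 2.14 above that of all genes tested, and 1.44 above it with GC offsets. TDH3 (YGR192C, chrVII:882812-883810, minus strand), the leading gene for the glycolytic enzyme glyceraldehyde-3-phosphate dehydrogenase, stood at 110989, 127779, 123402 and 123288 CPM in libraries 1 to 4. In libraries 5-10 it ran from 46071 to 67648 CPM with a median of 53620.0 CPM, so the highest of these lay far below the lowest of the others. Its log2 fold change was 2.17 with TMM scaling (SE 0.12, adjusted p = 1.96e-08) and 1.13 with library totals. ENO2, an enolase gene, had 52299 to 71198 CPM against 22853 to 32601 CPM (2.17, SE 0.14, adjusted p = 4.37e-08). ADH1, whose alcohol dehydrogenase forms ethanol, had 13623 to 20385 CPM against 5884 to 9113 CPM (2.23, SE 0.18, adjusted p = 9.55e-07). PDC1, the main pyruvate decarboxylase gene, had 13125 to 21618 CPM against 8297 to 11264 CPM (1.91, SE 0.12).

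The other called members of the pathway were TDH1, TDH2, ENO1, GPM1, FBA1, CDC19 and TPI1, with log2 fold changes of 1.65 to 2.08. In all of these but TPI1 the sets did not overlap. TPI1, the triosephosphate isomerase gene, had 1449, 1698, 585 and 1010 CPM in libraries 1 to 4 and 328 to 895.6 CPM in libraries 5-10, and its call was lost without any 1 of libraries 1, 2, 4, 5, 7, 8 or 9 (adjusted p up to 0.129). Since reads that map to more than 1 place were not counted, the split between the near-identical genes TDH1, TDH2 and TDH3, and between ENO1 and ENO2, is uncertain. Within the list too, GC content and fold change went together (Spearman correlation 0.67 over 25 genes). The hexose transporter genes, which supply the pathway with sugar, had 0 of 10 members called, against 1.06% of all genes. They took 0.102% to 0.186% of counts in libraries 1-4 and 0.151% to 0.228% in libraries 5-10. Their median log2 fold change was 1.14 above that of all genes tested, and 7 of the 10 had fitted values above 0.

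Of 47 cell wall genes tested, 4 were higher in libraries 1-4 and 0 lower (8.51% against 1.06% of all genes), and within the list fold change and GC content had a Spearman correlation of 0.78, given as a description. SED1 (46.8% GC), which encodes a major wall glycoprotein, had 22698, 21831, 20964 and 25133 CPM in libraries 1 to 4 and 8542 to 11828 CPM (median 10680) in libraries 5-10 (log2 fold change 2.15, SE 0.13, adjusted p = 3.28e-08). HSP150 had 2938, 3583, 1883 and 4927 CPM against 1089 to 1671 CPM (2.29, SE 0.28), again without overlap. The sets overlapped in CCW12 (52.0% GC), which encodes another wall mannoprotein, where library 10 had 5256 CPM and libraries 1 to 4 had 3862, 5241, 4011 and 10209 CPM (2.38, SE 0.42, adjusted p = 0.00631), and the value was -0.06 with GC offsets. They overlapped as well in CWP1, with 2754 to 5705 CPM against 2390 to 5415 CPM (1.25, SE 0.23, adjusted p = 0.00908), which fell to -0.16 with spike-in scaling and -0.09 with GC offsets.

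Among genes for sulfur amino acids and sulfate uptake, 6 of 30 were higher in libraries 1-4 (20.0% against 1.06%) and 0 lower, while the list's share of counts overlapped, at 4.99% to 6.89% against 4.52% to 6.08%. CYS3 (chrI:130799-131983, plus strand), whose enzyme releases cysteine from cystathionine, had 5752, 7169, 10229 and 9430 CPM in libraries 1 to 4 and 3348 to 4850 CPM (median 4200) in libraries 5-10 (log2 fold change 2.04, SE 0.23, adjusted p = 4.14e-05). CYS4 (40.3% GC), whose enzyme makes cystathionine in the step before, had 1100, 959, 532 and 1515 CPM against 2452 to 3490 CPM, and its fitted value did not pass (-0.43, SE 0.32, adjusted p = 0.557) and lay 0.41 above the median of all genes tested. A ratio of counts within a library does not depend on scaling. The ratio of CYS3 to CYS4 was 5.23, 7.48, 19.2 and 6.22 in libraries 1 to 4 and 0.959 to 1.95 in libraries 5-10. This pair was chosen after its values were seen.

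The other called members of the sulfur list were MET17, SAM1, SAM2, MET6 and SAH1, which act in the making of homocysteine, methionine and S-adenosylmethionine and in the return of homocysteine. SAM2 had 3477 to 7011 CPM against 1882 to 2807 CPM, without overlap (2.02, SE 0.24), although the split of reads between SAM2 and its near-identical copy SAM1 is uncertain. MET17, which fixes sulfide into homocysteine, had 33962, 18223, 26047 and 28430 CPM against 18186 to 31560 CPM, so that the call (1.28, SE 0.20, adjusted p = 0.00224) depended on the scaling, and with spike-in totals the value was -0.19. MET6 (1.19) and SAH1 (1.35) likewise had overlapping sets and values of -0.32 and -0.14 with spike-in totals, and MET6 lost its call without library 3, 4 or 7 (adjusted p up to 0.103). Of 55 genes for the synthesis of other amino acids, GDH1, ILV6 and LYS4 were called (5.45%) and 0 were lower, with ILV6 at -0.26 under GC offsets. The list's share of counts was smaller in every library of 1-4 than in any of 5-10, at 4.05% to 4.84% against 4.98% to 6.21%. GDH1, the glutamate dehydrogenase gene, had 6527 to 8077 CPM against 3357 to 4866 CPM (1.80, SE 0.19, adjusted p = 2.43e-05). LYS4, the homoaconitase gene of lysine synthesis, had 400 to 889.8 CPM against 108 to 301 CPM (2.77, SE 0.50), and without library 3 its adjusted p was 0.0523.

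Fatty acid synthase is built from a single kind of alpha and beta subunit, and the ratio of their transcripts separated the sets. FAS2 (42.3% GC), for the alpha subunit, had 6548, 5162, 3728 and 5496 CPM in libraries 1 to 4 and 2130 to 3868 CPM in libraries 5-10 (log2 fold change 1.90, SE 0.22, adjusted p = 4.14e-05), where library 3 lay below library 10. FAS1 (39.9% GC), for the beta subunit, had 1136, 2255, 1684 and 1390 CPM against 2574 to 5150 CPM (-0.15, SE 0.32, adjusted p = 0.85), which is 0.69 above the median of all genes tested. The ratio of FAS2 to FAS1 was 5.77, 2.29, 2.21 and 3.95 in libraries 1 to 4 and 0.473 to 1.39 in libraries 5-10, with no overlap. This pair too was chosen after its values were seen.

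In the machinery of translation, 2 ribosomal protein genes and 1 elongation factor gene were called. Of 127 ribosomal protein genes tested, RPL3 and RPL4A were higher in libraries 1-4 (1.57%, near the 1.06% of all genes) and 0 lower, and the list took 1.34% to 2.64% of counts against 2.05% to 3.83%. RPL3 had 2671 to 5213 CPM against 2350 to 4210 CPM (log2 fold change 1.29, SE 0.22, and -0.11 with spike-in totals). RPL4A (48.1% GC), a copy of a duplicated gene, had 500 to 1055 CPM against 211 to 533 CPM (2.16, SE 0.45), and lost its call without any 1 of libraries 2, 4, 5, 6, 7 or 8 (adjusted p up to 0.122). Of 10 elongation factor genes tested, TEF2 was called higher in libraries 1-4 (10.0% against 1.06% of all genes) and 0 were lower. TEF2 (1.51, SE 0.28) has a product identical to that of TEF1. At an unadjusted p under 0.05, 5 of the 10 were higher and 0 lower. The list's median log2 fold change was 1.69 above that of all genes tested, while its share of counts overlapped, at 0.509% to 0.769% against 0.451% to 0.767%. Of 20 chaperone genes SSA1 and CPR1 were called (10.0%). SSA1, a cytosolic Hsp70 gene, had 1622, 1908, 1474 and 2301 CPM in libraries 1 to 4 and 570.2 to 966.7 CPM in libraries 5-10 (2.30, SE 0.31, adjusted p = 0.000278). CPR1, the cyclophilin gene, had overlapping sets (1.43, SE 0.30, and -0.31 with GC offsets) and lost its call without any 1 of libraries 1, 2, 4, 6, 7 or 9 (adjusted p up to 0.0715).

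Outside the lists, 21 genes were called. YNL208W, given above, had a log2 fold change of 2.47 (SE 0.27, adjusted p = 3.03e-05). PAN1, which encodes an endocytic actin regulator, had 1239, 864, 1119 and 1523 CPM in libraries 1 to 4 and 40.3 to 395 CPM in libraries 5-10 (3.15, SE 0.55, adjusted p = 0.00613). SPT5, which encodes an elongation factor of RNA polymerase II, had 1375, 245, 1535 and 931 CPM against 12.1 to 294 CPM, with library 2 inside the range of the other set (3.87, SE 0.75, adjusted p = 0.0115, and 0.0507 without library 3). HOG1, the osmotic stress kinase gene, had 702 to 1464 CPM against 260.4 to 705 CPM (2.53, SE 0.44). DSK2, a ubiquitin receptor gene with 51.4% GC, had 724 to 2464 CPM against 270.1 to 810.5 CPM (2.61, SE 0.46). SNA3, a vacuolar sorting gene, had 133 to 969 CPM against 29.8 to 284 CPM (3.46, SE 0.71), and lost its call without any 1 of libraries 3, 4, 7 or 9. URN1, named after its values were seen, carried the highest fitted value (9.35, SE 1.98, adjusted p = 0.0229) with 0, 122, 107 and 28.2 CPM in libraries 1 to 4 and 0 in all of libraries 5-10 but library 7, and lost its call without any 1 of 8 libraries.

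In CPM, 28 genes (0.593% of those tested) lay higher in every library of 1-4 than in any of 5-10, and 241 (5.1%) lay lower. Of the 50 called genes, 19 were among the 28. The 241 had a median GC content of 39.8% and none passed the edgeR test. The 5 genes with the lowest p in that direction, among those with a mean log2 CPM of at least 5, were TAF10, CPR5, FDC1, YDL057W and SPT14. CPR5, which encodes a cyclophilin of the endoplasmic reticulum, had 100, 80.6, 54.7 and 95.7 CPM in libraries 1 to 4 and 544 to 1795 CPM (median 666) in libraries 5-10 (log2 fold change -2.39, SE 0.57, adjusted p = 0.0561). It passed with DESeq2's size factors (adjusted p = 0.0429), and with library totals (-3.40, adjusted p = 0.00809), a scaling chosen after seeing the data.

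The other genes of this direction were close to 0 in libraries 1-4. TAF10, a gene of the general transcription factor TFIID and of SAGA, had 0 CPM in libraries 1, 2 and 4, 0.569 CPM in library 3 and 5.3 to 300.2 CPM in libraries 5-10 (adjusted p = 0.0546). It passed with limma-voom (adjusted p = 0.0174), with a minimum of 10 counts in 4 libraries (0.037), with library totals (0.0446) and without library 8 (0.0368). FDC1, a ferulic acid decarboxylase gene, had at most 1.64 CPM in libraries 1-4 and 13.3 to 413 CPM in libraries 5-10 (adjusted p = 0.0758, and 0.00946 with limma-voom). SPT14, needed for glycosylphosphatidylinositol anchors, had at most 1.498 CPM in libraries 1-4 but was also at 0 in library 9 and reached 462 CPM in library 6. YDL057W was at 0 in libraries 1-4 and in library 5, at 5.1 CPM in library 6, and had 247 to 676 CPM in libraries 7, 8, 9 and 10. It passed without a filter (adjusted p = 0.0441) and without library 5 (0.0214) or library 6, as SPT14 did without library 9. Such transcripts varied widely among libraries 5-10 too, and the fitted values of genes with so few counts depend on the prior count of the fit.

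Several groups took a smaller share of the counts in every library of 1-4 than in any of 5-10. No member was called in the test, where 0% of all genes were called higher in libraries 5-10 and 1.06% higher in libraries 1-4. The 85 ribosome biogenesis genes took 0.0321% to 0.141% against 0.227% to 0.344%, and their median log2 fold change over 58 tested genes was 1.59 below that of all genes. CBF5, the pseudouridine synthase gene of rRNA, had 5.99, 6.58, 0 and 0.704 CPM in libraries 1 to 4 and 8.2 to 583 CPM in libraries 5-10. Nuclear genes for ATP synthase and the respiratory chain took 0.109% to 0.191% against 0.316% to 0.489%, and proteasome genes took 0.287% to 0.455% against 0.816% to 1.07%. Ergosterol genes took 0.519% to 0.856% against 1.06% to 1.39%. Within this pathway ERG11 (39.9% GC), for lanosterol demethylase, had 34.5, 239, 89.4 and 284 CPM against 553 to 1647 CPM (log2 fold change -1.71, adjusted p = 0.295), while NCP1 (46.4% GC), for the reductase that gives ERG11's product its electrons, had 1613, 1887, 2586 and 1833 CPM against 65.8 to 1776 CPM (2.23, adjusted p = 0.0677). Genes of the general stress response took 2.19% to 2.45% against 2.76% to 3.22%. At an unadjusted p under 0.05 in the edgeR test, 10 of 39 general stress genes were higher in libraries 1-4 and 0 lower. Of 58 ribosome biogenesis genes, 1 was higher and 9 were lower. Among all 4721 genes tested these numbers were 236 and 409.

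**Figure D4:**
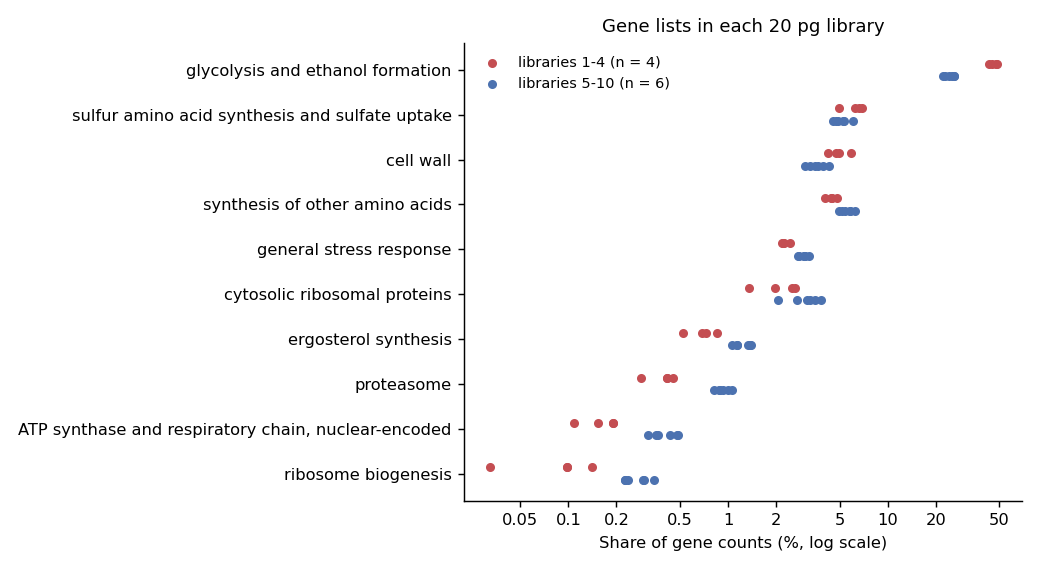
Share of gene counts (percent, log scale) of 10 gene lists in each 20 pg library, red for libraries 1-4 and blue for libraries 5-10. Glycolysis lies higher in libraries 1-4 without overlap, and synthesis of other amino acids, general stress response, ergosterol synthesis, proteasome, ATP synthase and respiratory chain, and ribosome biogenesis lie lower without overlap.

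Shares of counts add up to a fixed total and are not independent of each other. Read against the median of all genes tested, the lists of general stress response (1.40 above), ergosterol synthesis (0.39 above) and proteasome (0.39 above) lay higher, and only ribosome biogenesis (-1.59), ATP synthase and respiratory chain (-0.35) and the 5 tested sporulation genes (-2.91) lay lower among the lists with tested members. With libraries 3 and 4 alone in the lower-numbered set, the value for ATP synthase and respiratory chain was 0.19 above the median. With genes at 0 in a set put at a bound of 3 counts over that set, the fitted median of ribosome biogenesis moved from -2.43 to -2.20.

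The spike-ins, synthetic transcripts added in the same dilution to every 20 pg reaction, were put through the same test. Of 92 spike-ins 57 were tested, and 0 were called (0%) with TMM scaling or with DESeq2's size factors. At an unadjusted p under 0.05 there were 6 of the 57, beside 645 of the 4721 genes. The lowest adjusted p, 0.0752, was shared by ERCC-00009, with 9522 to 22315 CPM of the spike-in counts in libraries 1-4 and 18964 to 34205 in libraries 5-10, and ERCC-00136, with 6781 to 14669 and 16967 to 23447, and in ERCC-00136 the sets did not overlap. Without library 2, 1 spike-in was called.

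The same division by number was then followed at the other inputs, which share no library with the 20 pg sets. Genes above 46% GC took 58.3% to 60.3% of counts in libraries 1-4 made from 100 pg and 30.9% to 33.0% in the 3 higher-numbered ones. At 20 pg the ranges were 47.7% to 55.0% and 27.1% to 29.9%. At 10 pg they were 30.2% to 61.8% and 21.7% to 28.7%, still without overlap. At 5 pg the sets overlapped, and at 1 ng (37.5% to 49.5% against 36.02% to 43.0%) and 10 ng (34.3% to 48.3% against 33.6% to 39.2%) they overlapped widely. The share of genes with up to 40% GC was likewise separate at 10 pg, 20 pg and 100 pg alone, at 4.27% to 5.50% against 12.7% to 17.9% for 100 pg. In the most abundant 20% of the genes, the correlation of the set difference with GC content was 0.32 at 5 pg, 0.45 at 10 pg, 0.61 at 20 pg, 0.52 at 100 pg, -0.05 at 1 ng and 0.26 at 10 ng.

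**Figure D5:**
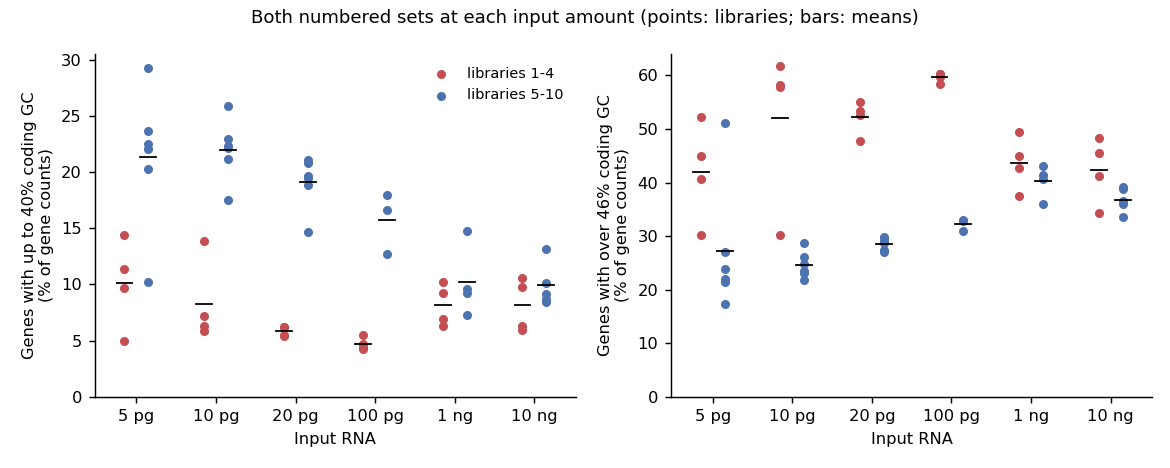
Percent of gene counts in genes with up to 40% (left) and over 46% (right) coding GC content at 6 input amounts, with points for libraries, red for numbers 1-4 and blue for numbers above 4, and bars for means. The sets are separate at 10 pg, 20 pg and 100 pg and overlap at 5 pg, 1 ng and 10 ng.

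The 50 genes called at 20 pg were read in those fits. Of the 50, 49 were in the most abundant 20% of the genes tested at 20 pg. The median log2 fold change of that class was 0.17, against -0.84 for all genes tested. The shares of all genes given below are therefore not matched to the 50 for abundance. At 100 pg all 50 lay above 0, against 33.3% of all genes tested there, and 35 were called, where 78 of 4542 genes (1.72%) were called higher in libraries 1-4 and 19 (0.418%) higher in the others. At 10 pg 46 lay above 0 against 30.7% of all genes, and 10 were called out of 13 in all (0.324% of 4014 genes). At 5 pg 41 of 49 lay above 0 against 40.7% of all genes, and none of them was called, among 28 calls in all (0.9%). At 1 ng and 10 ng 46 of the 50 lay above 0, against 37.3% and 44.6% of all genes, and 0 genes were called (0% of 4362 and of 3604), with 673 and 256 at an unadjusted p under 0.05 and with medians over the 50 of 0.70 and 0.45. TDH3 had a log2 fold change between the sets of 2.19 at 10 pg (SE 0.32, adjusted p = 0.00682) and 2.64 at 100 pg (SE 0.15), and of 0.91 at 5 pg (SE 0.84), 0.75 at 1 ng (SE 0.36) and 0.67 at 10 ng (SE 0.25), where it was not called. A test of the interaction of input amount and set in edgeR called 0 of 4388 genes (0%) for 20 pg against 10 pg and 0 of 4546 (0%) for 20 pg against 100 pg. At an unadjusted p under 0.05 there were 487 and 212 genes, and with DESeq2's size factors there were 0 calls. Of the 50 genes called at 20 pg, 10 had an unadjusted p under 0.05 in each interaction test. The 50 were chosen on the same 20 pg libraries, which enter both tests.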

How the data were processed

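Read counts per gene and per spike-in were analysed for the 10 libraries made from 20 pg of RNA and, for the comparison across inputs, for those of the 5 other amounts. The authors deposited raw counts, made per the labels and the methods of the study from reads mapped to the R64 genome, with STAR 2.5.2, RSEM 1.2.31 and HTSeq named in the submitters' processing notes. Reads with more than 1 best place were not assigned to a gene, and the kit does not mark strand, so near-identical copies and overlapping genes are uncertain. Spike-ins and the 5 summary rows of each table (11.4% to 16.6% of counts) were kept out of gene totals and tests. Coding sequence was matched from RefSeq for 5980 of 6420 genes.

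Libraries were grouped by the number in their titles. Genes were tested with edgeR 4.0.16 (R 4.3.3, TMM scaling, quasi-likelihood test, Benjamini-Hochberg threshold 0.05), and library measures with two-sided exact permutation tests adjusted over 9 measures (scipy 1.17.1). SEs are the fold change divided by the root of the F statistic. DESeq2 1.42.0 and limma 3.58.1 gave alternative tests, and the edgeR test between the sets, alone among the fits, was tested on simulated data. Other scalings, filters, left-out libraries, thinning and a covariate were tried as well. Offsets on GC content, library totals without scaling, and GC content without the 10 most abundant genes were added after seeing the data.

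Genes were named by rank among those past the threshold, by abundance overall and within each list, and by abundance among genes whose sets did not overlap, and where no gene passed in a direction, the 5 with the lowest p were given as values. CDC19, TPI1, FAS2, ERG11, URN1 and GON7 fall outside this rule and were chosen after their values were seen, as was the rule for the 6 sequences. The comparison, its members and the gene lists were chosen with earlier results of these data known. For the interaction tests, the numbers were not taken to pair libraries, since the labels do not say that equal numbers belong together. In same-numbered libraries of 2 amounts, the deviations from the set means correlated between -0.0135 and 0.0538. With the set means removed, this check cannot speak to a factor shared by a whole set. The 5 libraries whose labels give no input amount entered no comparison.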

Additional observations from a re-analysis of the deposited data

Results flagged for a closer look

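Single libraries that stood far from the rest of their set were looked for by Dixon's ratio in 154 groups of values, and 8 were found (5.19%). For TAF10, FDC1, SPT14 and URN1 the ratio was fixed at 1, since every other library of the set was at 0. The chance rate of about 1 in 20 holds for independent values without such ties, so the 5.19% cannot be read against it. In libraries 5-10, library 5 had the lowest correlation with the 10 ng profile (0.535), library 6 the lowest level of TDH1 (9304 CPM), library 10 the highest level of CPR5 (1795 CPM) and the highest share of a-cell markers (0.0135% of gene counts), and library 7 was the only one with any count of URN1 (0.603 CPM). In libraries 1-4, the only libraries with any count were library 3 for TAF10 (0.569 CPM), library 2 for FDC1 (1.64 CPM) and library 1 for SPT14 (1.498 CPM), each of them a single read.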

How the results depend on the processing

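With libraries 3 and 4 alone against 5-10, the differences (libraries 1-4 minus 5-10) were 47998 gene counts, -661 detected genes, -831 at equal depth, 22.8 percentage points in the 10 most abundant genes, -135 nucleotides, 1.97 percentage points of GC content and 0.00531 in the correlation with 10 ng. The exact p of the 5 measures that separate the full sets was then 0.0714, the smallest that 2 against 6 libraries allow, so none could pass. The length difference was -64.7 nucleotides without glycolysis and -53.1 without the 10 most abundant genes. The correlation difference was -0.0978 over genes with at least 5 counts in every library, 0.0338 with Pearson's coefficient, and -0.0151 to 0.00440 without each library in turn. The share of reads with no feature differed by -0.557 percentage points (adjusted exact p = 0.0286).

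The numbers of genes higher in libraries 1-4 and in 5-10 were 48 and 1 with DESeq2's size factors, 146 and 1 with upper-quartile scaling, 0 and 0 with spike-in totals, 12 and 7 with library totals, 125 and 220 with DESeq2's Wald test, 73 and 7 with limma-voom, 56 and 1 without a filter, 62 and 2 with at least 10 counts in 4 libraries, 20 and 1 with the number of detected genes as a covariate, 53 and 1 with libraries 3 and 4 alone, and 0 and 0 with GC offsets. Without each library in turn they were 36 to 49 and 0 to 2, and 33 of the 50 genes were called each time. For spike-ins the range was 0 to 1. Of the 50 called genes, 10 had values below 0 with spike-in totals and 8 with GC offsets. Among those named in the text these were, with spike-in totals, CWP1 (-0.16), MET17 (-0.19), MET6 (-0.32), SAH1 (-0.14) and RPL3 (-0.11), and with GC offsets CCW12 (-0.061), CWP1 (-0.091), ILV6 (-0.26) and CPR1 (-0.31). The cause of these changes was not tested.

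No paired analysis was possible because the sets share no library number. For the interaction with input amount, a replicate block on the number gave 0 calls against 10 pg and 0 against 100 pg, as without the block, with 118 and 151 genes at an unadjusted p under 0.05. Of the genes tested, 309 had no count in libraries 1-4 and 8 had none in libraries 5-10, and at equal depth 2175 and 3013 genes were detected on average.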
